A study of Mus musculus with 6 samples.

Results

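Respiratory complex I, the NADH:ubiquinone oxidoreductase that opens the mitochondrial electron transport chain, was examined gene by gene in fully grown mouse oocytes. Its genes were taken by symbol: every listed gene named *Ndufa*, *Ndufb*, *Ndufc*, *Ndufs*, *Ndufv* or *Ndufaf* and a number, which gave 47 of the 17577 genes in each table. They were ordered by role into 7 core subunits, 9 accessory subunits of the peripheral arm, 9 of the proximal membrane arm, 10 of the distal membrane arm, 8 assembly factors and 4 other genes that share the name. The 4 others were *Ndufa4* and *Ndufa4l2*, now counted with complex IV, and *Ndufb4b* and *Ndufb4c*, copies of *Ndufb4*. For short, all 47 are called complex I genes or members below, with these 4 included.

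The libraries came from oocytes at the germinal vesicle stage, taken at an age of 12 weeks from mice of the C57BL/6 J strain. In 3 libraries the oocytes were Bnc1tr/tr, homozygous in every cell for a targeted frameshift that truncates basonuclin 1, a zinc finger protein of germ cells and keratinocytes, and in 3 they were WT. By the methods of the study a single oocyte was the input of each cDNA, polyadenylated RNA was copied by a modified Smart-seq2 procedure, and mice had received gonadotropin for follicle growth before oocytes were collected. The study names 3 biological replicates per group and comparisons between littermates, without saying which libraries came from littermates. The labels did not say whether the libraries of a group came from separate mice, so p-values measure the spread between these libraries.

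Complex I is an L-shaped enzyme. Its peripheral arm takes electrons from NADH through a flavin and a chain of iron-sulfur clusters to ubiquinone, and its membrane arm pumps protons. The core subunits that carry the redox groups are encoded in the nucleus and those of the proton path in mitochondrial DNA. Accessory subunits surround and stabilise the core, and assembly factors help to build the enzyme without remaining in it. Oocytes hold many mitochondria and depend on their respiration for growth and maturation, while primordial oocytes of frog and human have been described with little assembled complex I.

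Values are in FPKM, the fragments of a gene for each kilobase of its transcript and each M (mega) of mapped fragments. They are shares of a library, so less transcript per oocyte and more of all other transcripts cannot be told apart. Estimated depth was 13.1 to 21.8 M fragments a library, at which 3 fragments on 1 kb of transcript equal 0.137 to 0.229 FPKM, a floor for counting error only. *Bnc1*, whose transcript the frameshift can lower without removing it, stood at 9.04, 6.51 and 5.83 FPKM in Bnc1tr/tr and at 13.17, 12.54 and 16.23 FPKM in WT (log2 fold change -0.89 ± 0.20, standard error, limma adjusted p = 0.0090). All 10 oocyte markers were above 10 FPKM in every library. By the calling rule given below, *Zp2* and *Nlrp5* were lower in Bnc1tr/tr (limma adjusted p = 0.032 and 0.026), and the other oocyte markers were not called. The 9 listed granulosa cell markers summed to 43.3 to 60.4 FPKM in Bnc1tr/tr and 22.7 to 39.9 FPKM in WT. *Cyp19a1* was the largest part of every sum, and its groups overlapped. Means of *Cyp19a1*, *Fshr*, *Kitl*, *Nr5a2* and *Inhba* were higher in Bnc1tr/tr, and those of *Inha* and *Hsd17b1* lower. Of these, *Fshr* and *Kitl* were called higher without overlap (limma adjusted p = 0.00011 and 0.018), and no other granulosa cell marker was called. *Foxl2* and *Amhr2* were at 0 in all Bnc1tr/tr libraries and at most at 0.03 and 0.21 FPKM in WT. The 4 listed theca and stroma markers summed to 5.35 to 7.53 and 1.40 to 2.09 FPKM, most of it *Dcn*, which was called higher (limma adjusted p = 0.00051). *Col1a1* was at 0 in all WT libraries and at most at 0.01 FPKM in Bnc1tr/tr. The 6 blood and immune markers summed to 1.76 to 54.7 FPKM and 1.39 to 2.94 FPKM, and 5 of them, all but *Cd68*, were at 0 in all WT libraries. The granulosa, theca and stroma sums did not overlap between the genotypes, and their part in the values below was not tested.

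Complex I transcripts were abundant in these oocytes. The 47 genes together held 1.30, 1.38 and 1.65% of the FPKM total of WT replicates 1 to 3 and 1.19, 1.48 and 1.37% of the Bnc1tr/tr replicates, so that the groups overlapped. In WT, 30 of the 35 subunits had a mean of 100 FPKM or more and 2 were under 50 FPKM. Subunit levels nevertheless differed 69.0-fold between the highest and the lowest in WT and 122-fold in Bnc1tr/tr. The order of the 46 genes that passed the filter of 1 FPKM on the mean was much the same in every library (Spearman rho between libraries 0.939 to 0.991 over these genes, which share libraries and are not replicates).

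*Ndufa2*, an accessory subunit with a thioredoxin-like fold, was the most abundant subunit, at 629, 679 and 954 FPKM in WT and 621, 924 and 788 FPKM in Bnc1tr/tr. *Ndufs1* was the least abundant, with values near 10 FPKM in WT, and *Ndufv1* the next. *Ndufs1* encodes a subunit with several iron-sulfur clusters and *Ndufv1* the one with the flavin, and both stood below every accessory subunit in every library.

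**Figure D1:**
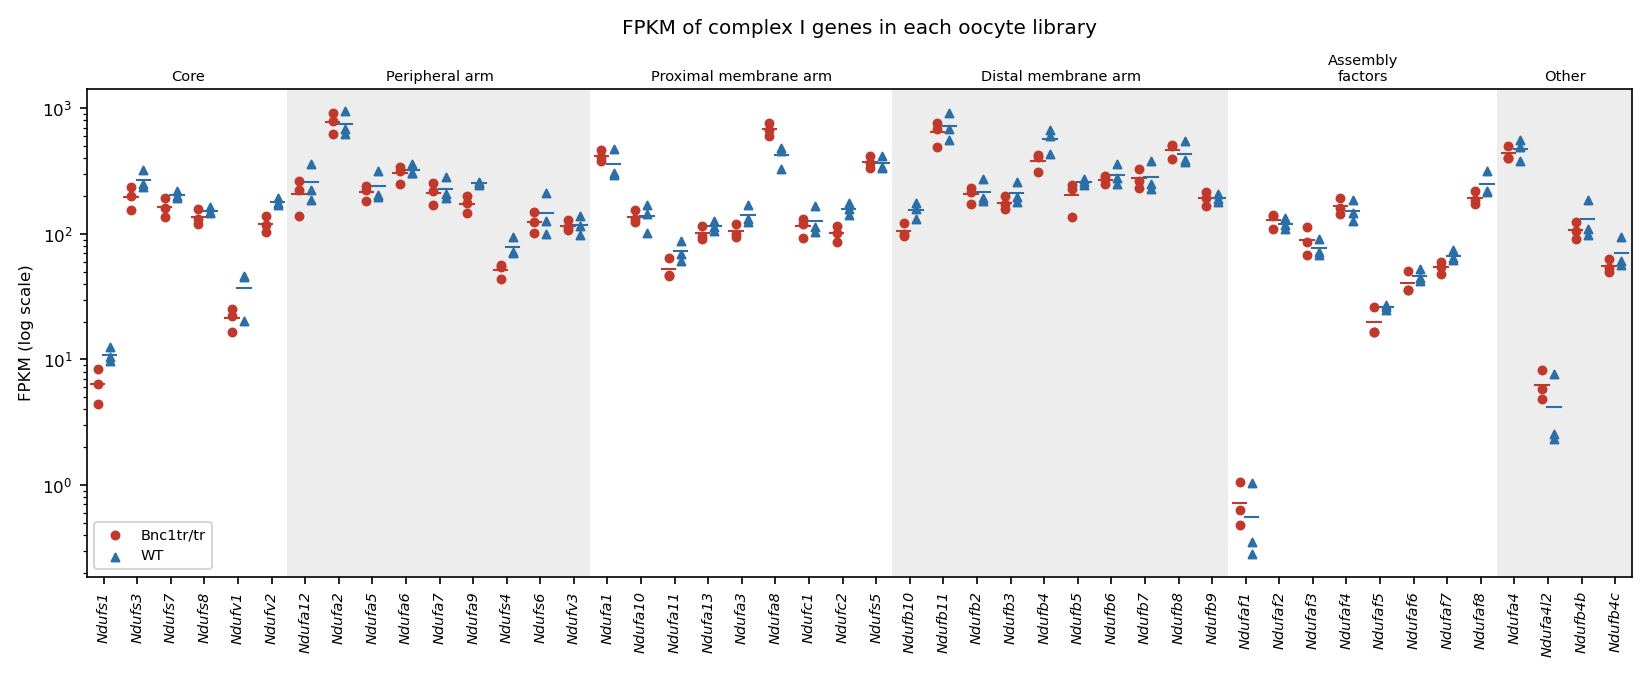
FPKM (log axis) of complex I genes by role, with 3 Bnc1tr/tr libraries as circles, 3 WT libraries as triangles and group means as short lines. Most subunits lie between 50 and 1000 FPKM, *Ndufs1* and *Ndufv1* lie well below the other subunits, and *Ndufaf1* lies near 1 FPKM.

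The genotypes were compared with limma over the 10560 genes that averaged 1 FPKM or more, on the log2(FPKM + 1) scale. A gene was called where its fold change passed 0.5 in size on that scale with an adjusted p under 0.05. Of the 46 complex I genes tested, 6 fell in Bnc1tr/tr, 1 rose and 39 did not pass. The lower calls were 13.0% of the members, beside 7.68% of all tested genes. The higher call was 2.17% of them, beside 24.1% of all tested genes. Since most complex I genes are abundant, the 41 at a mean of 50 FPKM or more were also set beside the 2155 tested genes at that level: 5 were lower (12.2%, beside 9.28%) and 1 was higher (2.44%, beside 11.9%). The share called lower was near the background of abundant genes, and the share called higher was below it.

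Fold changes of the members lay below those of most genes. The median was -0.18 on the log2 scale, against 0.15 over all 10560 tested genes, which is -0.33 relative to that median. Of the 46, 36 had a fold change below 0 (78.3%, against 39.6% of all tested genes), and 42 lay below the median of all tested genes (91.3%). Of the 41 at 50 FPKM or more, 32 were below 0, against 54.2% of the 2155 tested genes at that level, and 38 were below the median of all tested genes (92.7%, against 67.75%). All Bnc1tr/tr libraries were under all WT libraries in 12 members (26.1%, beside 14.1% of all tested genes) and above them in 1 (2.17%, beside 32.7%). Of the 41 genes at 50 FPKM or more, 11 lay wholly below WT (26.8%, beside 22.1% of all tested genes at that level) and 1 wholly above (2.44%, beside 20.3%), so the lower share was near that of abundant genes. Over the 35 subunits alone, 6 were called lower (17.1%) and 1 higher (2.86%), and 11 lay wholly below WT (31.4%). The fold changes of the 46 were small in size, from -0.72 to 0.70 on the log2 scale. A 95% interval excluded 0 in 9 of the 46, beside 4524 of all 10560 tested genes. At 50 FPKM or more it did so in 8 of 41 members, beside 711 of 2155 tested genes. The balance of calls over all genes depends on the scaling: 2547 were higher and 811 lower on FPKM, 2145 and 1231 after upper-quartile scaling, 2034 and 1395 after median-ratio scaling, and 1637 and 1877 after quantile normalization. The members' median relative to that of all tested genes was -0.35 after both upper-quartile and median-ratio scaling and -0.08 after quantile normalization.

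**Figure D2:**
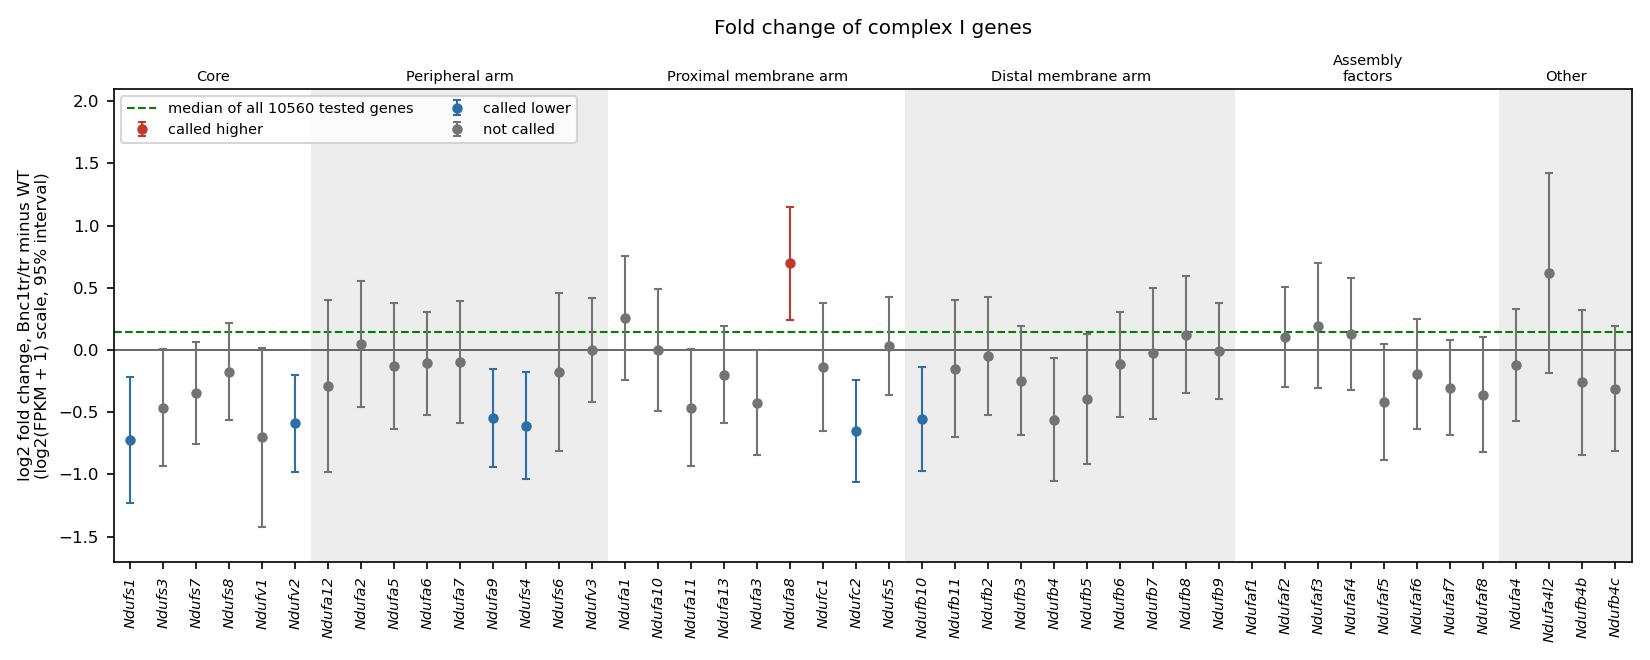
Log2 fold change (Bnc1tr/tr minus WT, log2(FPKM + 1) scale) with its 95% interval for the tested complex I genes, by role, with the dashed line at the median of all 10560 tested genes. Most points lie below 0, with *Ndufa8* the single gene called higher at 0.70. *Ndufaf1* was not tested and has no point.

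The 6 core subunits reported here all had a fold change below 0, beside 39.6% of all tested genes, with a median of -0.53. Of these, 2 fell (33.3%, beside 7.68% of all tested genes and 9.28% of those at 50 FPKM or more). *Ndufs1* stood at 6.34, 8.39 and 4.39 FPKM in Bnc1tr/tr and 12.51, 9.72 and 10.55 FPKM in WT. Every Bnc1tr/tr library was below every WT library. *Ndufs1* fell by 0.72 ± 0.22 on the log2 scale (limma adjusted p = 0.037), from a mean of 10.9 ± 1.43 to 6.37 ± 2.0 FPKM (SD, n = 3 each). *Ndufv2*, an iron-sulfur subunit beside the flavin site, stood at 104, 139 and 117 FPKM in Bnc1tr/tr and 177, 170 and 193 FPKM in WT. These groups did not overlap either, and *Ndufv2* fell by 0.59 ± 0.17 (limma adjusted p = 0.029).

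*Ndufv1*, which binds the flavin and NADH, had values of 22.2, 25.4 and 16.6 FPKM in Bnc1tr/tr and 46.1, 45.3 and 20.1 FPKM in WT. WT replicate 3 lay among the Bnc1tr/tr libraries and apart from the other WT libraries, so a log2 fold change of -0.70 ± 0.32 did not pass (limma adjusted p = 0.13). *Ndufv1* was called lower without WT replicate 3 (-1.08), after median-ratio scaling (-0.88, adjusted p = 0.044) and after quantile normalization (-0.89, adjusted p = 0.037). *Ndufs1*, *Ndufv1* and *Ndufv2* form the NADH-oxidising end of the peripheral arm, a split of the core made after the values were seen, and their fold changes of -0.72, -0.70 and -0.59 were the 3 lowest of these 6.

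*Ndufs3*, *Ndufs7* and *Ndufs8* belong to the part of the arm next to ubiquinone, and limma called 0 of these 3, with 0 at an unadjusted p under 0.05. *Ndufs3* stood at 155, 236 and 199 FPKM in Bnc1tr/tr and at 251, 238 and 321 FPKM in WT, without overlap by a margin of 2 FPKM between the nearest libraries (log2 fold change -0.46 ± 0.21, limma adjusted p = 0.12). Transcripts of other genes, *Gm12251* foremost, hold 55.0% of the 31-base words of *Ndufs3*, so its values are uncertain. *Ndufs7*, which holds the last cluster before ubiquinone, stood at 136, 192 and 160 FPKM in Bnc1tr/tr and 220, 193 and 202 FPKM in WT (-0.35 ± 0.18, limma adjusted p = 0.18).

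*Ndufs7* libraries did not overlap, but the nearest ones differed by about 1 FPKM. *Ndufs8*, another iron-sulfur subunit, had 119, 159 and 132 FPKM in Bnc1tr/tr and 146, 148 and 165 FPKM in WT (-0.17 ± 0.17, limma adjusted p = 0.48). Its groups overlapped, since Bnc1tr/tr replicate 2 lay within the WT range.

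Summed over the 7 core subunits, the share of the FPKM of all 47 genes was 7.96, 8.12 and 7.47% in Bnc1tr/tr and 11.1, 9.64 and 8.25% in WT. Every Bnc1tr/tr library held the smaller share, and WT replicate 3 came closest to them. With *Ndufa8*, whose own share differed, left out of the sum, the core held 8.62, 8.77 and 8.04% in Bnc1tr/tr and 11.5, 10.1 and 8.6% in WT, and the groups overlapped at WT replicate 3. The assembly factors held 7.10 to 7.78% and 7.21 to 7.71%, with overlap.

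**Figure D3:**
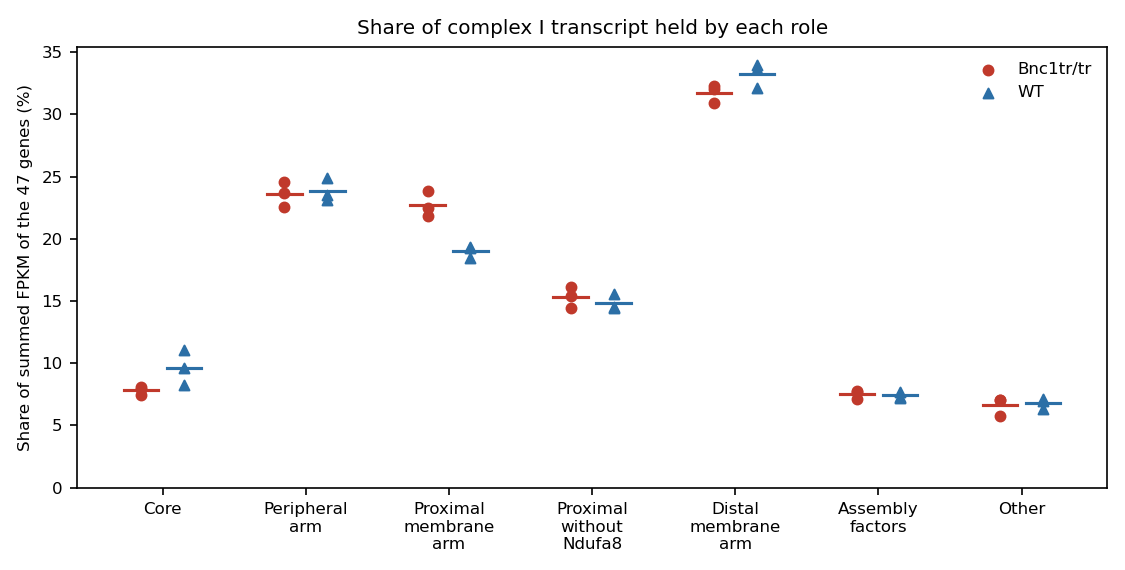
Share (%) of the summed FPKM of the 47 genes held by each role in each library (circles, Bnc1tr/tr; triangles, WT; lines, means of 3). The core share is lower in all Bnc1tr/tr libraries and the proximal membrane arm share higher, and neither separates the groups once *Ndufa8* is left out (plotted for the proximal arm).

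Among the 9 accessory subunits of the peripheral arm, 2 fell (22.2%, beside 7.68% of all tested genes) and 7 were not called. *Ndufa9*, a nucleotide-binding subunit at the junction of both arms, stood at 146, 201 and 175 FPKM in Bnc1tr/tr and 257, 246 and 255 FPKM in WT. The WT values were close together and all above the Bnc1tr/tr values, and *Ndufa9* fell by 0.55 ± 0.17 (limma adjusted p = 0.039). *Ndufs4*, whose loss in mice gives a mitochondrial encephalopathy, stood at 43.5, 54.3 and 56.0 FPKM in Bnc1tr/tr and 71.9, 70.4 and 94.4 FPKM in WT. Its groups did not overlap, and *Ndufs4* fell by 0.61 ± 0.19 (limma adjusted p = 0.037). The other 7, *Ndufa2*, *Ndufa5*, *Ndufa6*, *Ndufa7*, *Ndufa12*, *Ndufs6* and *Ndufv3*, had fold changes between -0.29 and 0.05 with adjusted p from 0.51 to 0.99, and all overlapped between the groups. For *Ndufa2* the fold change was 0.05 on FPKM and -0.09 after upper-quartile scaling.

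The proximal membrane arm held the firmest lower call and the single higher call. Each was 1 of 9 subunits (11.1%), beside 7.68% lower and 24.1% higher of all tested genes. *Ndufc2*, a small membrane subunit, stood at 85.8, 116 and 102 FPKM in Bnc1tr/tr and 142, 158 and 177 FPKM in WT. Every Bnc1tr/tr library was below every WT library, and *Ndufc2* fell by 0.65 ± 0.18 on the log2 scale (limma adjusted p = 0.023), from 159 ± 17.5 to 101 ± 14.9 FPKM (SD, n = 3 each). *Ndufa8*, a cysteine-rich subunit on the intermembrane side, stood at 602, 769 and 668 FPKM in Bnc1tr/tr and 328, 457 and 483 FPKM in WT. All Bnc1tr/tr libraries were above all WT libraries, and *Ndufa8* rose by 0.70 ± 0.20 (limma adjusted p = 0.027), or 0.55 beyond the shift of all tested genes. Its mean rose from 423 ± 82.7 to 680 ± 84.0 FPKM (SD, n = 3 each), and it moved from the sixth to the second most abundant of the 47 genes.

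*Ndufa8* alone held 7.71, 7.40 and 7.07% of the FPKM of the 47 genes in Bnc1tr/tr and 3.76, 4.88 and 4.04% in WT. The proximal arm as a whole held 23.8, 21.8 and 22.5% in Bnc1tr/tr and 19.3, 19.4 and 18.5% in WT. Without *Ndufa8* its share was 16.1, 14.4 and 15.4% and 15.5, 14.5 and 14.4%, with overlap. The other 7 proximal subunits were not called, with fold changes from -0.46 for *Ndufa11* to 0.26 for *Ndufa1* and adjusted p from 0.12 to 0.997. *Ndufa3* alone of these 7 had groups without overlap, at 94.9, 119 and 99.6 FPKM in Bnc1tr/tr and 124, 131 and 169 FPKM in WT (-0.42 ± 0.19, limma adjusted p = 0.12).

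The sequences before the start of *Ndufa8* and *Ndufc2* are shown because these genes moved in opposite directions (RefSeq, build GRCm38.p6, 250 bases each, written along the gene's strand). Capitals mark GCGCNTGCG on either strand, the core of the site of NRF1, a known activator of respiratory chain genes. The *Ndufa8* window is chr2:36049339-36049588 (minus strand, 58.0% G or C) and the *Ndufc2* window is chr7:97399753-97400002 (plus strand, 45.2% G or C).
Ndufa8: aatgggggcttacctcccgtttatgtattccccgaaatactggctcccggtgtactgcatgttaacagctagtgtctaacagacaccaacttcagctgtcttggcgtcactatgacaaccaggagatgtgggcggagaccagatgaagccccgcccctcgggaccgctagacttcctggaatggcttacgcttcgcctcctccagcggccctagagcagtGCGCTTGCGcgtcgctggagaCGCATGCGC
Ndufc2: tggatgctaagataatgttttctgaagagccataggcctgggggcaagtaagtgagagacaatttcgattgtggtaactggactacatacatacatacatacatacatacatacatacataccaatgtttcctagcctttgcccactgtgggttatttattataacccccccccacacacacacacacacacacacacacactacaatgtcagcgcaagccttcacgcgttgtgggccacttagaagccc
Matches in the *Ndufa8* window begin 30 and 9 bases before the gene's start, the second on the other strand, and these letters do not occur in the *Ndufc2* window, which holds a run of CA repeats. The letters also lie before the start of *Ndufb10*, which was called lower. Genes that were not called have them before the start as well, namely *Ndufa5*, *Ndufa11*, *Ndufa12*, *Ndufaf4*, *Ndufb4*, *Ndufs5* and *Ndufs6*. Whether the letters bear on the direction of change was not tested.

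Among the 10 distal membrane arm subunits, 1 fell and 9 were not called. *Ndufb10*, a subunit facing the intermembrane space, stood at 98.9, 122 and 95.5 FPKM in Bnc1tr/tr and 132, 157 and 178 FPKM in WT. The groups did not overlap, and *Ndufb10* fell by 0.56 ± 0.18 (limma adjusted p = 0.047). *Ndufb4* had a fold change of the same size that did not pass, at 312, 421 and 411 FPKM in Bnc1tr/tr and 429, 604 and 668 FPKM in WT (-0.56 ± 0.22, limma adjusted p = 0.081). *Ndufb4* was called lower after median-ratio scaling (adjusted p = 0.043) and without WT replicate 1 (adjusted p = 0.031), in 3 of 16 alternative fits in all. Its copies could share fragments with it, since *Ndufb4c* has all of its 31-base words (100%) in *Ndufb4* or other transcripts, and 38.3% of the words of *Ndufb4* recur elsewhere. *Ndufb5* libraries did not overlap either, by less than 1 FPKM (-0.39 ± 0.23, limma adjusted p = 0.23). The other 7, from *Ndufb2* to *Ndufb11*, had fold changes between -0.25 and 0.12 with overlapping groups.

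Of the 8 assembly factors, limma called 0, beside 7.68% lower and 24.1% higher of all tested genes. Of the 7 tested, 0 had an unadjusted p under 0.05. *Ndufaf1*, a member of the membrane-arm assembly complex, was under the filter, at 0.48, 1.05 and 0.63 FPKM in Bnc1tr/tr and 0.35, 1.03 and 0.28 FPKM in WT. In a fit without the filter its fold change was 0.17 ± 0.22 (limma adjusted p = 0.66), and the groups overlapped. *Ndufaf3* and *Ndufaf4* act together on the early peripheral arm: *Ndufaf3* stood at 68.0, 113 and 86.4 FPKM in Bnc1tr/tr and 71.1, 68.3 and 90.3 FPKM in WT (0.20 ± 0.22, limma adjusted p = 0.54). *Ndufaf4* stood at 144, 192 and 162 FPKM and at 126, 148 and 185 FPKM (0.13 ± 0.20, limma adjusted p = 0.67).

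Both pairs of groups overlapped. *Ndufaf2*, a relative of the subunit *Ndufa12*, had 109, 138 and 141 FPKM in Bnc1tr/tr and 110, 117 and 134 FPKM in WT (0.10 ± 0.18, limma adjusted p = 0.70), again with overlap. After median-ratio scaling the fold changes of *Ndufaf2* and *Ndufaf4* were -0.08 and -0.06, so no direction can be given for either.

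*Ndufaf5*, which hydroxylates the *Ndufs7* protein, stood at 16.5, 26.3 and 16.6 FPKM in Bnc1tr/tr and 24.9, 27.4 and 26.1 FPKM in WT (-0.42 ± 0.21, limma adjusted p = 0.16). Bnc1tr/tr replicate 2 lay within the WT range and the other Bnc1tr/tr libraries below it. *Ndufaf5* was called lower without Bnc1tr/tr replicate 2, with a fold change of -0.63 and an adjusted p of 0.038. *Ndufaf8*, the partner of *Ndufaf5*, stood at 186, 219 and 174 FPKM in Bnc1tr/tr and 215, 220 and 317 FPKM in WT (-0.36 ± 0.20, limma adjusted p = 0.21). Its groups overlapped in a single pair of libraries.

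*Ndufaf7*, a mitochondrial protein arginine methyltransferase, stood at 47.8, 59.7 and 54.5 FPKM in Bnc1tr/tr and 73.9, 62.2 and 63.9 FPKM in WT (-0.30 ± 0.17, limma adjusted p = 0.20). It was the single assembly factor whose groups did not overlap. *Ndufaf6*, an early assembly factor, stood at 35.7, 51.0 and 35.8 FPKM and at 52.1, 41.9 and 44.8 FPKM (-0.19 ± 0.20, limma adjusted p = 0.49), with overlap.

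The 4 other genes of the name were not called. *Ndufa4* stood at 403, 403 and 504 FPKM in Bnc1tr/tr and 380, 492 and 563 FPKM in WT. *Ndufa4l2*, a gene induced by low oxygen in other tissues, stood at 5.84, 8.19 and 4.86 FPKM in Bnc1tr/tr and 2.54, 2.34 and 7.62 FPKM in WT (0.62 ± 0.36, limma adjusted p = 0.22). WT replicate 3 again lay with the Bnc1tr/tr libraries, and without it *Ndufa4l2* was called higher with a fold change of 1.06. *Ndufb4b* and *Ndufb4c* had fold changes of -0.26 and -0.31 with overlapping groups.

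Some complex I genes outside the naming rule had larger fold changes than any member. Of 14 listed genes, 13 were tested, 3 fell (23.1%, beside 7.68% of all tested genes) and 2 rose (15.4%, beside 24.1%), with 8 not called. *Timmdc1*, an assembly factor of the membrane arm, stood at 1.24, 1.65 and 0.78 FPKM in Bnc1tr/tr and 5.07, 5.78 and 7.48 FPKM in WT, and fell by 1.68 ± 0.21 (limma adjusted p = 0.00039). *Ecsit*, which works with *Ndufaf1* in the membrane-arm assembly complex, stood at 6.63, 5.08 and 4.62 FPKM in Bnc1tr/tr and 16.43, 12.05 and 9.44 FPKM in WT, and fell by 1.06 ± 0.22 (limma adjusted p = 0.0070). Both genes separated the groups completely.

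*Nubpl*, which delivers iron-sulfur clusters to complex I, stood at 9.12, 12.86 and 24.06 FPKM in Bnc1tr/tr and 23.05, 34.90 and 34.02 FPKM in WT, and fell by 1.03 ± 0.32 (limma adjusted p = 0.037). Bnc1tr/tr replicate 3 overlapped with WT replicate 1. *Tmem70*, an assembly protein of complexes I and V, stood at 193, 198 and 198 FPKM in Bnc1tr/tr and 128, 97.1 and 92.9 FPKM in WT, and rose by 0.90 ± 0.18 (limma adjusted p = 0.0050). *Tmem186*, another protein of the membrane-arm assembly complex, stood at 8.63, 5.92 and 6.26 FPKM and at 4.94, 4.33 and 2.43 FPKM, and rose by 0.72 ± 0.24 (limma adjusted p = 0.049). *Tmem186* lost this call in 11 of 16 alternative fits, with a fold change of 0.35 and an adjusted p of 0.21 after quantile normalization. The acyl carrier protein *Ndufab1*, a subunit that the symbols leave out, was abundant in both groups with a fold change of -0.02 ± 0.19 (limma adjusted p = 0.94).

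Fold changes were also set beside those of related gene groups on the FPKM scale. The median fold change was -0.04 over the 46 tested genes of complexes II to V and -0.11 over 77 mitochondrial ribosomal protein genes, against -0.18 over the complex I genes and -0.04 over all tested genes at 50 FPKM or more. In complexes II to V 4 genes rose (8.70%) and 1 fell (2.17%), and among the ribosomal proteins 3 rose and 3 fell (3.90% each). All were below the 24.1% higher and 7.68% lower of all tested genes. They were also below the 11.9% and 9.28% of tested genes at 50 FPKM or more, a level to which these lists were not limited. The medians were not tested against each other.

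**Figure D4:**
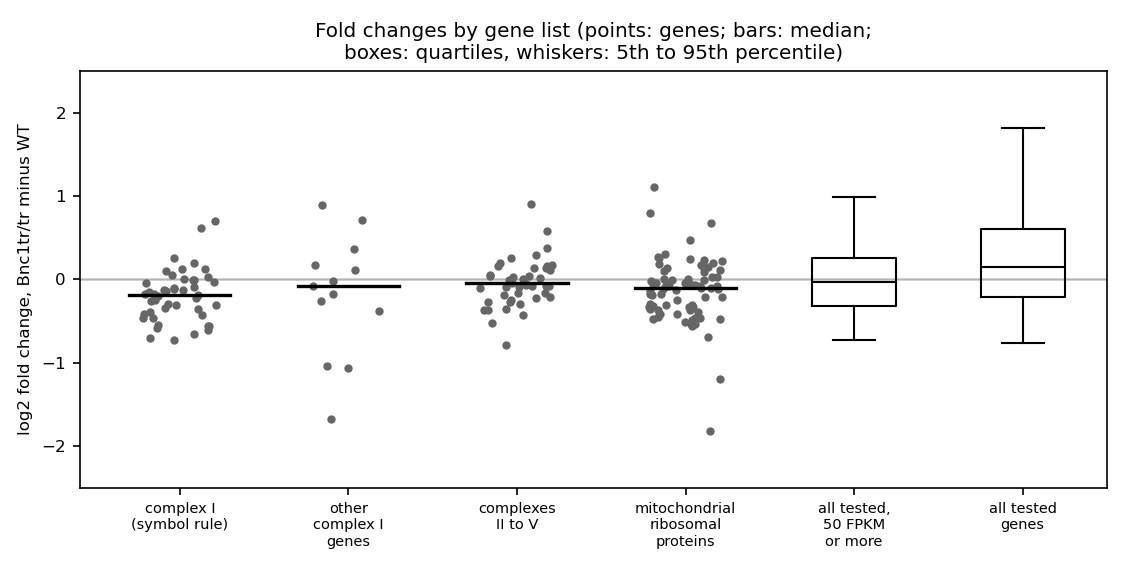
Log2 fold changes (Bnc1tr/tr minus WT) of the genes in each list, as points with a bar at the median, and for the larger lists as boxes at the quartiles with whiskers from the 5th to the 95th percentile. The complex I genes lie mostly below 0 and span a narrower range than the other complex I genes; 3 genes of complexes II to V lie beyond the axis.

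Libraries of a genotype were not alike for these genes. Among the WT libraries replicate 3 was the highest for 37 of the 46 tested members, and it was the highest of all 6 libraries for 31. Bnc1tr/tr replicate 1 was the lowest of its group for 38 members and the lowest of all 6 for 30. The median deviation of the members from their 6-library mean was -0.29 in Bnc1tr/tr replicate 1 and 0.33 in WT replicate 3, and -0.07 to 0.11 in the other 4 libraries. Without WT replicate 3 the members' median fold change was -0.06, and without Bnc1tr/tr replicate 1 it was -0.07.

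The differences between libraries also varied with transcript length. The members had a median length of 892 bases against 2640 over the tested genes, and WT replicate 3 stood at 0.11 for the 979 tested genes under 1000 bases but at -0.20 for the 9473 longer genes. In Bnc1tr/tr replicate 1 the values were -0.09 and 0.15. The 27 members under 1000 bases had a median fold change of -0.13, and the 18 longer ones of -0.30. Over all tested genes the order was the other way, at 0.03 under 1000 bases and 0.16 for the longer genes. Among tested genes at 50 FPKM or more the medians were -0.05 and -0.03. After a correction for length the members' median was -0.08, against 0.14 over all tested genes with a length. Then 3 of the 45 members with a length were called lower, namely *Ndufc2*, *Ndufs1* and *Ndufv2*, and *Ndufa8* was called higher. Of all 10452 tested genes with a length, that fit called 816 lower and 2510 higher.

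**Figure D5:**
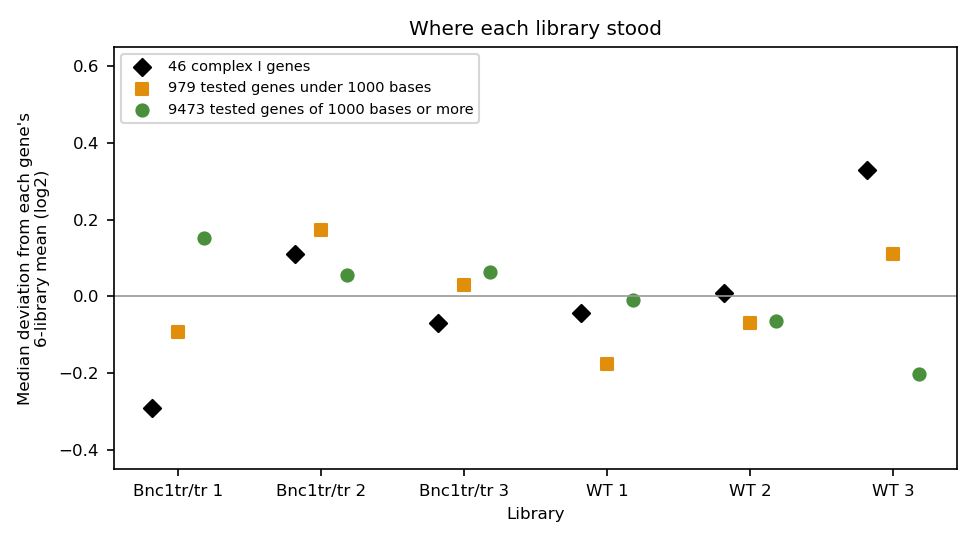
Median deviation (log2) of gene levels from their 6-library mean in each library, for the 46 complex I genes and for tested genes under and over 1000 bases. Complex I genes are lowest in Bnc1tr/tr replicate 1 at -0.29 and highest in WT replicate 3 at 0.33.

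The calls were close to the threshold. *Ndufc2* was called lower in 13 of 16 alternative fits, *Ndufv2* in 10, *Ndufs1* in 9, and *Ndufa9*, *Ndufs4* and *Ndufb10* in 8 each, while *Ndufa8* was called higher in 10. None of the 6 lower genes was called without Bnc1tr/tr replicate 1, without Bnc1tr/tr replicate 3 or without WT replicate 2, where the log2 fold change of *Ndufc2* was at least 0.54 below 0 and the adjusted p at most 0.081. *Ndufa8* was not called after upper-quartile or median-ratio scaling, nor without Bnc1tr/tr replicate 2 or 3 or WT replicate 1 or 2. Of the genes outside the naming rule, *Ecsit* and *Tmem70* were called in all 16 fits, *Timmdc1* in the 15 that tested it, *Nubpl* in 10 of 16 and *Tmem186* in 5 of 16. *Nubpl* was not called without Bnc1tr/tr replicate 1 or 2 or WT replicate 2 or 3, and with 1 library left out *Tmem186* was called only without WT replicate 1.

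RefSeq start-site windows (250 bases before to 50 after the start) were found for 40 of the 47 genes, in 42 windows. AAGATGGCG, the core of the site of the zinc finger factor YY1, was searched on both strands and occurred in 6 windows (14.3%, against 1.40% of all 32851 windows). GCGCNTGCG occurred in 12 windows of 11 genes (28.6%, against 6.31%), *Ndufa8* and *Ndufb10* among them, CCGGAAG, an ETS factor core, in 6 (14.3%, against 8.86%), and GGGCGG, an SP1 core, in 21 of the 42 (against 35.7%). The 6 windows of 30 bases with AAGATGGCG are printed because in each the letters lie after the annotated start and on the gene's own strand, which the search did not ask for.
Ndufa9: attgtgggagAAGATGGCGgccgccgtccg
Ndufs4: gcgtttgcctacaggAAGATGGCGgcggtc
Ndufs7: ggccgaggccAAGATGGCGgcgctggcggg
Ndufs6: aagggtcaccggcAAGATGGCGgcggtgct
Ndufc1: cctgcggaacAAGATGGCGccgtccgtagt
Ndufaf8: ggcagggcccAAGATGGCGgcgccctcgag
Capitals mark the match, which began 11 to 36 bases after the start. Of these genes *Ndufa9* and *Ndufs4* fell, and the other 4 were not called. The letters hold an ATG, and whether it is the start codon was not tested.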

How the data were processed

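Libraries of 6 GV oocyte samples, 3 Bnc1tr/tr and 3 WT by the labels' genotype, were made by a modified Smart-seq2 procedure. For each library the authors deposited gene-level FPKM without read counts. The submitters' processing notes name HISAT2 2.0.4, Bowtie2 2.2.5, RSEM 1.2.12 and GRCm38.p6. The gene annotation was not given in the sources used here. As FPKM are shares, a change in abundant transcripts moves the values of the rest.

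Groups were compared unpaired in R 4.3.3 with limma 3.58.1, after taking log2(FPKM + 1) of every gene that averaged 1 FPKM or more. This scale understates the change of low genes. A call needed a log2 fold change past 0.5 in size and a Benjamini-Hochberg adjusted p under 0.05 over these 10560 genes. The script was tested on simulated data. A gene that the symbols take in is not reported here on its own. Values per library are given for 6 core subunits, the assembly factors, every called gene and the most and least abundant subunit, and other genes given by library (*Ndufb4*, *Ndufa3*, *Ndufa4*, *Ndufa4l2* and genes outside the symbols) were chosen after their values were seen. The members and lists were chosen with earlier results of these data known, so no pattern here is independent support. Depth came from the spacing of low values and entered no test. Lengths and shared 31-base words came from GENCODE M21 and start-site windows from RefSeq (GRCm38.p6). Other pseudocounts, filters, scalings, variances, thresholds, a length correction, a replicate block and leaving out each library were tried. Figures were drawn with matplotlib 3.10.9.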

Additional observations from a re-analysis of the deposited data

How the results depend on the processing

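The count of complex I genes called lower was 6, and it was 2 with a pseudocount of 0.1, 3 after the length correction and 0 at an absolute log2 fold change over 1. Over all 10560 tested genes 811 were called lower, 646 with a pseudocount of 0.1 and 952 with the replicate block. After the length correction 816 of 10452 were. Leaving out single libraries gave 0 to 6 members, beside 418 to 1041 of all 10560 tested genes. Where limma called 0 members, 3 to 6 of them were past the fold-change threshold at an unadjusted p under 0.05. The count called higher was 1, and it was 0 after upper-quartile scaling, after median-ratio scaling and at an absolute log2 fold change over 1. Leaving out single libraries gave 0 to 2 members called higher, beside 1905 to 2498 of all tested genes. Every other alternative kept both counts within 1.5 times. With the replicate block 8 genes were called lower, *Ndufv1* (adjusted p = 0.027) and *Ndufb4* (adjusted p = 0.032) in addition to the 6, and 1 higher, and with the block and the length correction 4 and 1. The numbers do not establish pairs, since deviations of same-numbered libraries correlated at 0.28, -0.03 and 0.12, and not every library correlated best with its own number. After both scalings 6 genes turned from above to below 0, *Ndufa10*, *Ndufb8* and *Ndufs5* among them. The others were *Ndufa2* (-0.0915), *Ndufaf2* (-0.038) and *Ndufaf4* (-0.0122) after upper-quartile scaling, at -0.1365, -0.0827 and -0.057 after median-ratio scaling. Quantile normalization turned *Ndufa10* below 0 and *Ndufb2*, *Ndufb7*, *Ndufb9* and *Ndufv3* above it. The length correction, with or without the block, turned *Ndufa7*, *Ndufb7*, *Ndufb9* and *Ndufv3* above it. Without WT replicate 3, 12 genes turned above 0 and 1 below, and without Bnc1tr/tr replicate 1, 8 turned above 0 and 0 below. Leaving out any other library turned 1 to 3 genes below 0 and 0 or 1 above. Leaving out single libraries gave -0.0837 to 0.23 for *Ndufa2*, -0.0027 to 0.27 for *Ndufaf4*, -0.28 to 0.0054 for *Ndufa4* and -0.44 to 0.0233 for *Ndufb4b*. The causes were not tested. The log2 fold change of *Bnc1* was past the thresholds used in each of the 16 alternative fits, but its value of -0.89 does not pass an absolute log2 fold change over 1. With 3 libraries a group and calls near the threshold, a gene that was not called may still differ, as the width of its interval shows.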
